A study of Mus musculus with 6 samples.

Results

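The genes described here are those that let a cell sense the hormones of energy balance: the leptin receptor, the insulin receptor and its substrates, the adiponectin receptors, the brain receptors for melanocortin and ghrelin, and a pair of brakes on these signals. They were chosen by name as the 10 genes Lepr, Insr, Irs1, Irs2, Adipor1, Adipor2, Mc4r, Ghsr, Socs3 and Ptpn1, and each was found under 1 gene identifier among the 35850 genes of the deposited table. Gene values are the sum over a gene's listed transcripts in TPM, the usual unit of transcript abundance scaled by transcript length, so that levels can be set beside each other within a library.

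The study asked how an obesogenic diet, described in the series title as a maternal exposure, affects gene expression in the optic nerve of mice that form optic glioma. All mice, on both diets, had the GFAP-Cre transgene, and of their Nf1 alleles 1 was floxed and the other held the R681X mutation; they were 6 weeks old, and mice of another genotype are not compared here. The GFAP promoter drives Cre recombinase in glial cells, and Nf1 encodes neurofibromin, a brake on RAS. The control diet was PicoLab 5053; the other was AIN-76A made obesogenic by fat, 58% of the energy, and sucrose. Each diet had 3 libraries of bulk poly(A) RNA. The labels do not say that the libraries came from separate animals or litters, so that the p-values rest on a spread among samples that could be technical.

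Leptin and adiponectin are hormones made by fat cells, and insulin is made by the pancreas. Leptin binding to its receptor activates the kinase JAK2, which in turn activates the transcription factor STAT3. Insulin binding makes its receptor phosphorylate the IRS adaptor proteins, which start PI3K and AKT signalling. Adiponectin receptors are membrane proteins that signal through the adaptor APPL1 to the energy sensor AMPK. The phosphatase encoded by Ptpn1 (PTP1B) and the STAT3-induced protein SOCS3 damp leptin and insulin signals. In the brain, leptin is best known for its action on the hypothalamus, where Mc4r and Ghsr take part in control of appetite. Short forms of the leptin receptor are also known from the meninges, choroid plexus and brain vessels.

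The libraries differed in markers of other cell types, and several of the 10 genes were high or low in the same libraries as these markers. The 10 mature oligodendrocyte markers, of the main glia of an optic nerve, summed to 64815, 61980 and 69993 TPM in control libraries and to 55314, 27069 and 28280 TPM in obesogenic libraries, and all 10 had a lower obesogenic mean. Astrocyte markers summed to between 2874 and 7574 TPM. The summed level of 12 meningeal markers was 2101 to 3083 TPM in control and 810 to 997 TPM in obesogenic libraries. The 14 hypothalamic neuron markers summed to 424 to 2217 TPM in control libraries and to 7948, 1319 and 7367 TPM in obesogenic libraries 1, 2 and 3; most of each sum was Avp, a hypothalamic peptide gene, at 351 to 2038 TPM and at 6257, 933 and 4584 TPM. The 10 plasma and B cell markers summed to 2610 TPM in obesogenic library 2 and to between 33.5 and 44.1 TPM elsewhere, and immunoglobulin transcripts took 20.6% of that library's listed TPM. In bulk RNA, fewer cells of a type and less RNA per cell cannot be told apart.

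Of the 10 genes, 8 passed the filter on low values and were tested, and 0 passed the threshold of an adjusted p of 0.05 (limma, Benjamini-Hochberg over 14364 genes). Over all genes tested 1 passed, or 0.00696%, a gene model named Gm9836 that was listed at 0 in every obesogenic library. At an unadjusted p under 0.05, 1 of the 8 (Lepr) was called, beside 11% of all genes tested. Values of all obesogenic libraries lay below all control values for 1 of the 8, Lepr, where 7.45% of all genes did so. They lay above all control values for 2 of the 8, Adipor2 and Ptpn1, where 8.88% of all genes did so. The median log2 difference of the 8 genes was 0.04, against 0.079 over all genes tested.

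**Figure D1:**
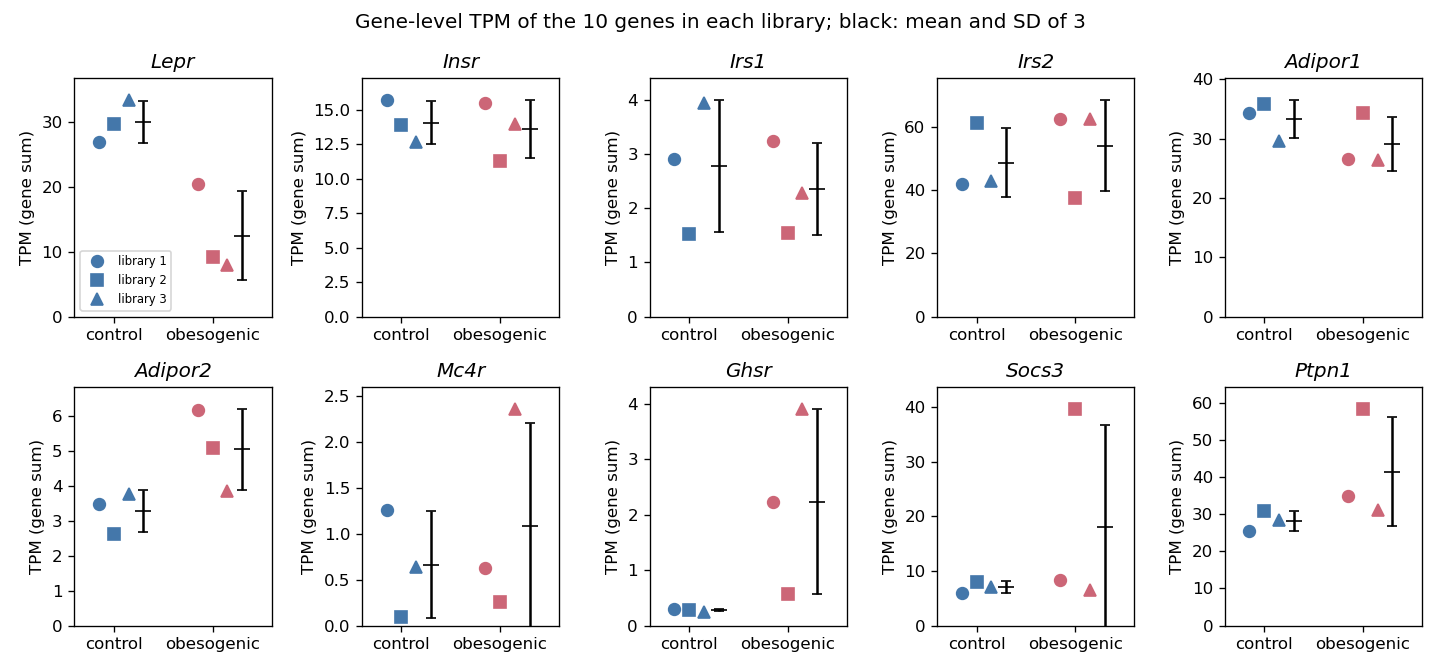
TPM of each of the 10 genes (vertical axes, linear from 0) in control (blue) and obesogenic (red) libraries, with circles, squares and triangles for libraries 1, 2 and 3 and black bars for the mean and SD of 3, which for Socs3 extend below the axis. Lepr sits lower in all obesogenic libraries, Ghsr is highest in obesogenic libraries 1 and 3, and Socs3 and Ptpn1 are highest in obesogenic library 2.

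The leptin receptor gene Lepr (ENSMUSG00000057722) showed the largest difference of the 8 tested genes. It measured 26.9, 29.6 and 33.4 TPM in control libraries 1, 2 and 3 and 20.4, 9.13 and 7.91 TPM in the obesogenic libraries. The groups did not overlap, and obesogenic library 1 lay nearest to control. The log2 difference was -1.31 (SE 0.36, 95% interval -2.14 to -0.47), which did not pass over all genes (limma adjusted p = 0.297). The size of this difference exceeded that of 94.5% of genes tested. With limma's array weights, which weigh libraries by their fit, it was -0.66 (adjusted p = 0.122; over all settings tried, 0.0518 to 0.762). Leaving out any 1 library gave values between -1.70 and -1.07, none past the threshold.

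Lepr makes several receptor forms that share the outside of the protein and differ in the tail inside the cell, and the table lists them separately. The coding ends below, from GENCODE M21 (GRCm38, chromosome 4, plus strand), show where 3 forms part. Lower case marks the last 30 shared coding bases, which end at coding base 2667 in each form, and capitals mark the form's own coding bases.
Lepr-203: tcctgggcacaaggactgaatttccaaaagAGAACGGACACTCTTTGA
Lepr-202: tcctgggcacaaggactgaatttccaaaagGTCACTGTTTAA
Lepr-201: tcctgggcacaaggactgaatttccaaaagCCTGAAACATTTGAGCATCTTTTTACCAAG
Lepr-203 ends after 18 bases of its own, stop codon included, which gives a coding length of 894 codons, that of the short form known as LEPRa. Lepr-202 ends after 12 bases of its own and has 892 codons. Lepr-201 goes on for 822 bases, of which the first 30 are shown, and its 1162 codons are those of the long form, LEPRb, whose tail carries the STAT3 docking site. The last exon of Lepr-203 starts at 101811348 and that of Lepr-201 at 101814448.

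Most of the difference in Lepr lay in the short form. Lepr-203 (ENSMUST00000106921) measured 22.2, 19.5 and 20.2 TPM under the control diet, against 8.62, 8.36 and 6.21 TPM under the obesogenic diet. The spread within each diet was small beside the gap, with means of 20.6 ± 1.37 and 7.73 ± 1.32 TPM (SD, n = 3). The log2 difference was -1.32 (SE 0.24), with a limma adjusted p = 0.201 over 35408 transcripts. In that fit 2 transcripts passed, or 0.00565%, a Ctbp1 transcript and the Gm9836 transcript, and 0 of the transcripts of the 10 genes; 8.46% had an unadjusted p under 0.05. All obesogenic values lay below all control values in 6.11% of transcripts tested. Leaving out any 1 library gave Lepr-203 differences between -1.40 and -1.19.

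The long form Lepr-201 (ENSMUST00000037552) was low on both diets. It measured 0.31, 0.315 and 1.42 TPM under the control diet, against 1.66, 0.494 and 1.13 TPM under the obesogenic diet, and the groups overlapped (log2 difference 0.34, SE 0.42, limma adjusted p = 0.875). Lepr-202 was listed at 0 in all control libraries and in obesogenic library 1, and at 0.282 and 0.577 TPM in obesogenic libraries 2 and 3. Of the summed TPM of these 3 complete forms, Lepr-203 made up 98.6%, 98.4% and 93.4% in control libraries. Its share was 83.9%, 91.5% and 78.5% in obesogenic libraries, lower in each than in any control library. An exact two-sided permutation test gave p = 0.1 for this share, the smallest that 3 against 3 allows, and 0.267 after adjustment over the 8 derived quantities compared in this way. The 3 forms together measured 22.5, 19.8 and 21.6 TPM under the control diet, against 10.3, 9.13 and 7.91 TPM under the obesogenic diet (exact p = 0.1, adjusted 0.267).

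The 4 other listed Lepr transcripts set obesogenic library 1 apart. These are short models without a complete coding region, where few reads give a high TPM. Lepr-205, a model of 208 bases, was listed at 7.35 TPM in obesogenic library 1 and at 0 in the other libraries. Together the 4 models added 4.40, 9.75 and 11.7 TPM in control libraries, 10.1 TPM in obesogenic library 1 and 0 in obesogenic libraries 2 and 3. With transcripts under 1000 bases left out of every gene, a choice made after seeing the data, the log2 difference of Lepr was -1.15 with a smaller SE of 0.20 (limma adjusted p = 0.132).

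**Figure D2:**
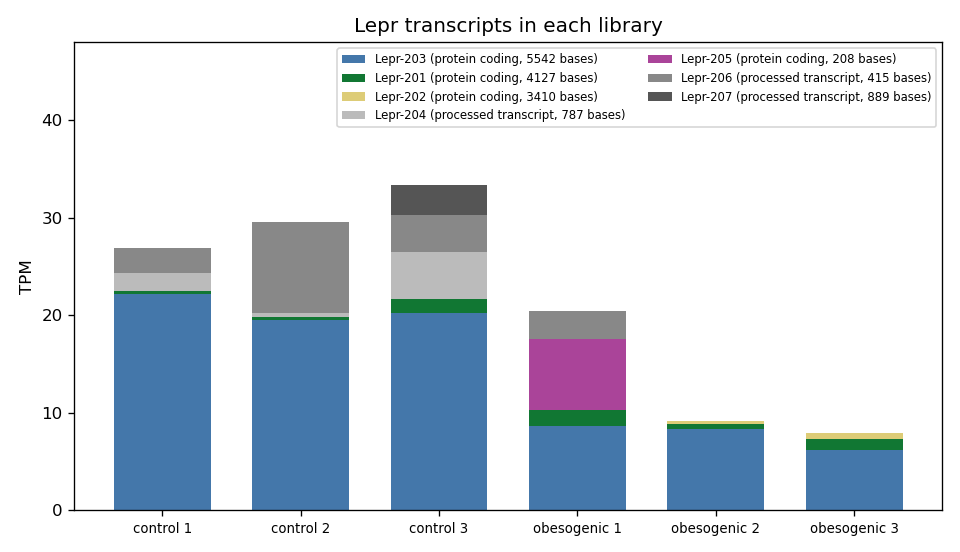
TPM of each listed Lepr transcript, stacked for each of the 6 libraries (vertical axis, linear from 0). The short-form transcript Lepr-203 (blue) is at 19.5 TPM or above in the control libraries and at 8.62 TPM or below in the obesogenic libraries, while Lepr-205 appears in obesogenic library 1.

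Markers of several cell types were lower along with Lepr when the diets were compared. Within a diet, the order of libraries matched that of Lepr for some sums and not for others. Control library 3 had the lowest control sums of meningeal, endothelial and pericyte markers and the highest Lepr. Those sums and the short form Lepr-203 were highest in control library 1. In obesogenic libraries 1, 2 and 3 the meningeal sum was 997, 913 and 810 TPM, in the order of Lepr. All 12 meningeal markers had a lower obesogenic mean, and for 10 of them no obesogenic library reached a control value, beside 7.45% of all genes tested. The oligodendrocyte sum, like Lepr, was nearest to control in obesogenic library 1. Of 12 endothelial markers 11 had a lower mean. For 7 of the 12 every obesogenic value lay below every control value. The endothelial sums ranged from 235 to 502 TPM under the control diet, against 185 to 272 TPM under the obesogenic diet. These ranges overlapped through control library 3 and obesogenic library 3. Ly6c1, 1 of the 12, was at 2.23 TPM in the former and 76.8 TPM in the latter. The 10 pericyte and smooth muscle markers summed to 769 to 1192 TPM in control and 412 to 432 TPM in obesogenic libraries, without overlap. Most of each sum was Vtn, at 639 to 863 TPM in control and 309 to 362 TPM in obesogenic libraries. For 6 of the 10 no obesogenic library reached a control value, and Pdgfrb, a pericyte marker, was listed at 0 in every library. Of 8 choroid plexus markers 5 had a lower and 3 a higher obesogenic mean; Kcnj13 and Kl were lower in every obesogenic library, Kcnj13 at 86.3 to 124 TPM in control and 22.2 to 39.5 TPM in obesogenic libraries. Ttr, the defining transcript of choroid plexus epithelium, was at 6.31 TPM or below in every library. The part of these cell types in the Lepr difference was not tested.

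Leptin itself was listed at 0 in every library, as was the adipocyte gene Cidec, and Adipoq, the adiponectin gene, was at 0.396 TPM in control library 3 and 0 elsewhere. Of the 21 genes listed as the leptin and JAK-STAT arm, 19 were tested and 0 passed, with 8 lower and 11 higher means and a median log2 difference of 0.054. The 4 with the smallest unadjusted p were Jak1, Stat5b, Cish and Socs2. Jak1, a kinase of cytokine receptors, measured 62.8, 67.9 and 58.4 TPM under the control diet, against 83.1, 87.0 and 75.2 TPM under the obesogenic diet (log2 difference 0.37, limma adjusted p = 0.473). Cish, a STAT5-induced brake, was at 2.60 ± 0.644 TPM under the control diet, against 5.62 ± 2.69 TPM under the obesogenic diet (SD, n = 3), without overlap. Stat5b and Socs2 overlapped between diets, with log2 differences of 0.51 and 1.30 (adjusted p = 0.476 and 0.524). Jak2, the kinase that the leptin receptor uses, was at 29.2 to 32.9 TPM under the control diet, against 35.7, 47.1 and 29.6 TPM under the obesogenic diet.

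Socs3 (ENSMUSG00000053113), the feedback inhibitor of leptin and cytokine receptors, was high in 1 library. It measured 5.96, 8.05 and 7.09 TPM under the control diet, against 8.31, 39.6 and 6.44 TPM under the obesogenic diet, so that obesogenic library 2 stood apart and the other obesogenic libraries lay close to control. The log2 difference was 0.82 (SE 0.62, limma adjusted p = 0.685), and 0.059 without obesogenic library 2. In a comparison added because this library was seen to stand apart, obesogenic library 2 alone was 2.35 log2 units above the 3 control libraries, on the assumption that it varies as they do; 1.34% of all genes tested were called there, and since the library was chosen for its values this is a description and not a test of the diet. Besides Socs3, 3 pathway genes were called in that comparison, among them Socs1, another SOCS family inhibitor, and Inpp5d, which encodes a lipid phosphatase of blood cells, both higher. Socs1 was at 25.0 TPM there and did not exceed 3.10 TPM in the others, while Stat3 was at 164 TPM there and between 78.7 and 121 TPM elsewhere. Jak2, Stat3, Socs1 and Inpp5d were picked out after their values were seen.

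The Socs3 promoter holds a copy of the palindromic STAT motif TTCNNNGAA, shown here in capitals within a stretch of 99 bases. The stretch lies upstream of the RefSeq gene start and does not reach it (GRCm38.p6, chr11:117969467-117969565, minus strand, written along the gene).
Socs3 upstream: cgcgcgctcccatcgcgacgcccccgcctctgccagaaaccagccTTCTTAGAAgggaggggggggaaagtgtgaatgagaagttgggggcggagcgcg
The copy shown lies 154 to 146 bases before that start. It is the first along the window, and further copies were not counted. Read on both strands, the STAT motif occurs in 8.3% of the 32851 RefSeq windows of this kind, which run from 250 bases before a gene start to 50 after. Of 10 windows for 8 of the 10 genes, 1 held it. The forkhead motif TGTTTAC, the core of FOXO sites through which insulin signalling represses genes, was in 3.65% of all windows and in 2 of the 10, those of Adipor1 and Adipor2. The motifs do not overlap in letters, and a match is a description of the sequence and shows no binding.

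Ptpn1 (ENSMUSG00000027540), which encodes the phosphatase PTP1B, was also highest in obesogenic library 2. It measured 25.5, 30.9 and 28.4 TPM under the control diet, against 34.8, 58.3 and 31.2 TPM under the obesogenic diet. The groups did not overlap, but the margin between control library 2 and obesogenic library 3 was under 1 TPM. The log2 difference was 0.49 (SE 0.27, 95% interval -0.14 to 1.12, limma adjusted p = 0.558), and 0.22 without obesogenic library 2. Its coding transcript (ENSMUST00000029053) measured 25.2, 25.2 and 22.6 TPM under the control diet, against 26.5, 49.4 and 19.3 TPM under the obesogenic diet, which overlapped. In obesogenic library 2, microglia markers summed to 2204 TPM against 565 to 867 TPM elsewhere, and T and NK cell markers to 355 TPM against 22.8 TPM or less. The part of these immune transcripts in the Socs3 and Ptpn1 values was not tested.

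**Figure D3:**
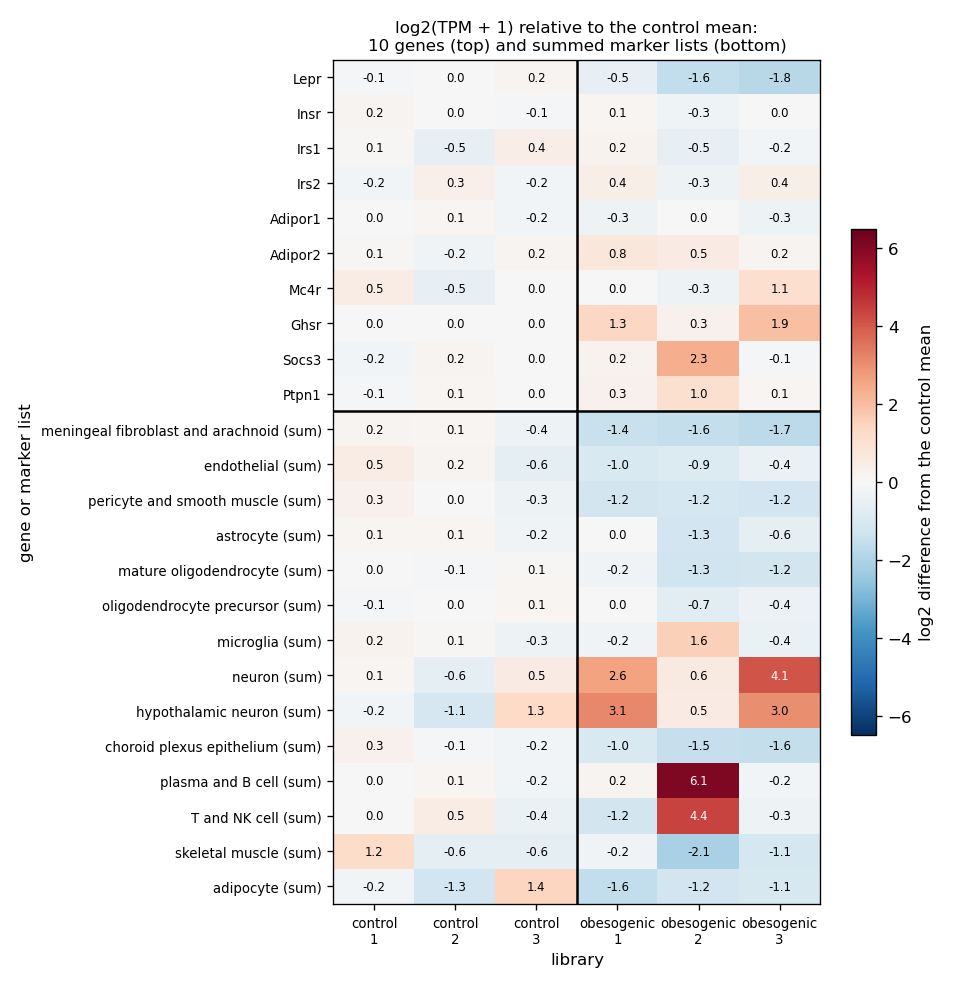
Difference of log2(TPM + 1) from the control mean in each library (colour and printed value) for the 10 genes above the black line and for the summed TPM of 14 marker lists below it. In each obesogenic library Lepr and the meningeal, pericyte, choroid plexus and mature oligodendrocyte sums are below every control library. Ghsr is high in obesogenic libraries 1 and 3 with the neuronal sums, and Socs3 and Ptpn1 are highest in obesogenic library 2 with the lymphocyte sums.

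The insulin receptor gene Insr (ENSMUSG00000005534) had similar levels on both diets. It measured 15.7, 13.9 and 12.6 TPM under the control diet, against 15.5, 11.3 and 14.0 TPM under the obesogenic diet, with a log2 difference of -0.052 (95% interval -0.61 to 0.50, limma adjusted p = 0.954). The sign of this difference turned under several settings. Most of the sum came from models that keep an intron and encode no complete receptor. The retained-intron transcripts Insr-202 and Insr-204 made up 84.2%, 85.0% and 79.3% of Insr in control and 84.1%, 84.8% and 88.5% in obesogenic libraries (exact permutation p = 0.5, adjusted 0.571). The full receptor transcript Insr-201, of 9355 bases, measured 2.48, 2.08 and 2.62 TPM under the control diet, against 2.46, 1.71 and 1.604 TPM under the obesogenic diet (log2 difference -0.22, SE 0.34, limma adjusted p = 0.899). Gene-level Insr in this table is therefore mainly a measure of those models.

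Among the receptor substrates, Irs2 was the most abundant of the 10 genes on either diet and Irs1 was low. Irs2 (ENSMUSG00000038894) measured 42.1, 61.2 and 42.8 TPM under the control diet, against 62.4, 37.4 and 62.4 TPM under the obesogenic diet. Both diets thus held low and high libraries, and the log2 difference was 0.13 (95% interval -0.50 to 0.77, limma adjusted p = 0.899). Irs1 (ENSMUSG00000055980) measured 2.90, 1.51 and 3.93 TPM under the control diet, against 3.23, 1.55 and 2.27 TPM under the obesogenic diet (log2 difference -0.15, 95% interval -1.06 to 0.76). The ratio of Irs2 to Irs1 was 14.5, 40.4 and 10.9 in control and 19.3, 24.2 and 27.5 in obesogenic libraries, again overlapping (exact permutation p = 0.9, adjusted 0.9).

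Of the 18 genes listed as partners of the insulin receptor, 16 were tested and 0 passed, with 8 lower and 8 higher means. Irs4, a substrate known from the hypothalamus, measured 1.14, 0.112 and 0.684 TPM under the control diet, against 24.4, 3.93 and 43.8 TPM under the obesogenic diet, a log2 difference of 3.48 (SE 0.78, limma adjusted p = 0.236). It was higher in every obesogenic library and followed the order of the neuron markers, whose sum was 275, 66.3 and 777 TPM in those libraries. Irs4 reached the filter on low values only through the obesogenic libraries. Shc1, an adaptor that links receptors to RAS, measured 94.7, 102 and 78.1 TPM under the control diet, against 59.9, 69.4 and 36.8 TPM under the obesogenic diet (log2 difference -0.75, adjusted p = 0.399). Enpp1, which encodes a membrane pyrophosphatase, was also lower in every obesogenic library, at 27.3 ± 5.77 TPM under the control diet, against 15.6 ± 5.46 TPM under the obesogenic diet (SD, n = 3). Grb14, an inhibitor of the insulin receptor, was at 77.2 to 96.9 TPM under the control diet, against 34.1, 77.9 and 45.8 TPM under the obesogenic diet (log2 difference -0.84, adjusted p = 0.413). That difference was 0.029 when transcripts under 1000 bases were left out, so its direction turned on short models. Igf1r, the related receptor for insulin-like growth factors, measured 7.43 ± 1.17 and 7.24 ± 2.68 TPM, and its sign turned with the scaling. Ins1 was listed at 0 in every library, and Ins2 at 1.32 and 1.19 TPM in obesogenic libraries 1 and 2 and at 0 elsewhere.

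Of 29 PI3K, AKT and mTOR genes 28 were tested and 0 passed, with a median log2 difference of 0.11, 9 lower means and 19 higher. Akt2, the AKT form that serves insulin-driven glucose uptake, measured 41.8, 60.4 and 39.5 TPM under the control diet, against 35.1, 25.5 and 29.6 TPM under the obesogenic diet (log2 difference -0.62, limma adjusted p = 0.42). Inppl1, whose product SHIP2 removes the PI3K lipid signal, measured 55.8 ± 6.27 and 36.4 ± 9.81 TPM (SD, n = 3; adjusted p = 0.414). Of the glycogen synthase kinase genes, Gsk3a was lower and Gsk3b higher in every obesogenic library: Gsk3a was at 4.19 ± 1.85 and 2.10 ± 0.613 TPM and Gsk3b at 10.7 ± 1.29 and 16.4 ± 0.278 TPM (adjusted p = 0.531 and 0.424).

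Of the adiponectin receptors, Adipor1 was above Adipor2 in every library. Adipor1 (ENSMUSG00000026457) measured 34.4, 35.8 and 29.6 TPM under the control diet, against 26.5, 34.3 and 26.3 TPM under the obesogenic diet. Its groups overlapped through obesogenic library 2, and the log2 difference was -0.19 (95% interval -0.67 to 0.28, limma adjusted p = 0.781). Adipor2 (ENSMUSG00000030168) measured 3.49, 2.62 and 3.77 TPM under the control diet, against 6.18, 5.09 and 3.87 TPM under the obesogenic diet. It was higher in every obesogenic library, by the least margin in obesogenic library 3, and did not pass (log2 difference 0.49, 95% interval -0.24 to 1.21, limma adjusted p = 0.619). Its coding transcript (ENSMUST00000169744) measured 1.93, 1.89 and 1.31 TPM under the control diet, against 2.40, 2.67 and 2.56 TPM under the obesogenic diet, also without overlap (adjusted p = 0.816).

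The ratio of Adipor1 to Adipor2 within a library was 9.86, 13.7 and 7.86 in control and 4.30, 6.74 and 6.80 in obesogenic libraries. Each obesogenic ratio was below each control ratio (exact permutation p = 0.1, the smallest possible here, adjusted 0.267). The retained-intron model Adipor2-204 made up on average 37.6% of Adipor2 in control and 42.5% in obesogenic libraries. The coding transcript of Adipor1 made up 92.7% and 95.1% of that gene, so the ratio is not one of coding transcripts alone. A ratio within a library shows unequal levels and not which of the genes differs, and the table held 3 of 4 Adipor1 and 4 of 5 Adipor2 transcripts of GENCODE M21.

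Of the 18 adiponectin and AMPK genes 17 were tested and 0 passed, with 10 lower and 7 higher means and a median log2 difference of -0.074. Cdh13, which encodes T-cadherin, a surface protein that binds adiponectin, measured 13.7, 14.1 and 16.0 TPM under the control diet, against 38.8, 20.8 and 79.5 TPM under the obesogenic diet (log2 difference 1.40, SE 0.45, limma adjusted p = 0.359). The deacetylase gene Sirt1 measured 1.11 ± 0.346 and 3.72 ± 1.29 TPM, and Prkab2, an AMPK subunit gene, 0.242 ± 0.42 and 1.84 ± 1.04 TPM (SD, n = 3). All 3 were higher in every obesogenic library, and Sirt1 and Prkab2 reached the filter on low values only through those libraries. Ppara, the fatty acid-sensing receptor gene, measured 7.02 ± 3.02 and 4.12 ± 0.551 TPM and overlapped.

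**Figure D4:**
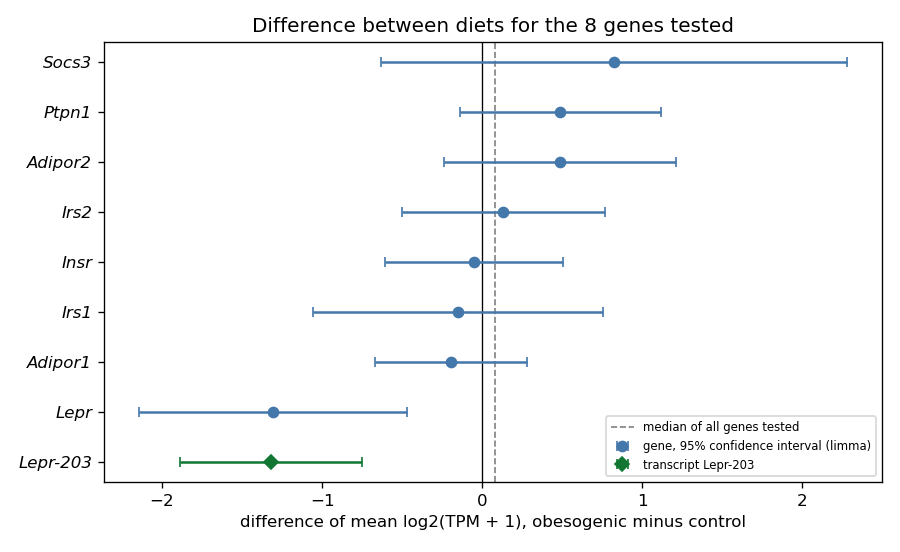
Difference of mean log2(TPM + 1), obesogenic minus control, with its 95% confidence interval from limma, for the 8 tested genes (circles) and the transcript Lepr-203 (diamond). The intervals of Lepr and Lepr-203 lie below 0, those of the other 7 genes cross 0, and none passed after adjustment over all genes or transcripts.

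The appetite receptors Mc4r and Ghsr were the least abundant of the 10 genes and did not reach the filter of 1 TPM in 3 libraries. Ghsr (ENSMUSG00000051136), the ghrelin receptor, measured 0.298, 0.276 and 0.253 TPM under the control diet, against 2.23, 0.573 and 3.91 TPM under the obesogenic diet. All obesogenic values were above all control values, most in libraries 1 and 3 (exact permutation p = 0.1, adjusted 0.2 over both receptors). Mc4r (ENSMUSG00000047259), the melanocortin receptor that curbs food intake, measured 1.25, 0.088 and 0.639 TPM under the control diet, against 0.625, 0.259 and 2.36 TPM under the obesogenic diet. Its groups overlapped, with the highest value in obesogenic library 3 (exact permutation p = 0.7, adjusted 0.7).

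Some other genes of the melanocortin and ghrelin system were, like Ghsr, highest in obesogenic libraries 1 and 3. Of 14 listed genes 9 were tested and 0 passed. For 6 of the 9 all obesogenic libraries lay above control, beside 8.88% of all genes tested, and for 1, Mrap, all lay below. Some of the 6, such as Pcsk1, reached the filter only through obesogenic libraries, where they were high. Low genes without such a rise were not tested, so this count follows in part from the filter. Pomc, whose product is cut into the melanocortin ligand of Mc4r, measured 6.63, 2.57 and 4.22 TPM under the control diet, against 332, 35.9 and 547 TPM under the obesogenic diet. Cartpt, a satiety peptide gene, measured 6.38 ± 2.78 TPM under the control diet, against 104, 21.6 and 248 TPM under the obesogenic diet (limma adjusted p = 0.236), and Pcsk1, which encodes a protease that cuts POMC, 0.987 ± 0.661 TPM and 16.8, 3.56 and 24.5 TPM. Mc3r, the other neural melanocortin receptor, was listed at 0 in every control library and at 3.08, 0.77 and 11.96 TPM in obesogenic libraries. Agrp, which opposes melanocortin at Mc4r, was at 0.401 TPM or below in every library, and Ghrl, the ghrelin gene, at 1.27 TPM or below.

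Without obesogenic library 2, 914 genes were called, or 6.36% of those tested, and among them were 0 of the 10 genes and 10 of the pathway genes. These 10 were Pomc, Npy, Cartpt, Pcsk1, Pcsk2, Mrap2, Irs4, Ptprf and Cdh13, all higher, and Grb14, lower; Pcsk2, Mrap2 and Ptprf are named because of this call. Pomc then differed by 6.36 log2 units (limma adjusted p = 0.0136) and Npy, the appetite-stimulating neuropeptide Y, by 6.25 (adjusted p = 0.0175). With all libraries the differences were 5.18 and 5.54. Obesogenic library 2 held the lowest obesogenic value of each pathway gene called higher, such as Pomc (35.9 TPM) and Npy (83.1 TPM), and the highest of Grb14. Leaving it out enlarges these differences, so the calls are a description and not a test of the diet. Of the 14 hypothalamic markers 13 had a higher obesogenic mean, where 8288 of the 14364 genes tested did. For 7 of the markers the groups did not overlap, beside 8.88% of all genes tested. The 14 include markers below the filter, Agrp, Sim1 and Otp, so the shares have unlike bases. Npy, Pomc, Agrp and Cartpt belong to both lists, so those counts are not independent. Avp, picked out after its values were seen, overlapped between diets through control library 3. Whether the Ghsr, Mc3r and Irs4 values follow these neuronal transcripts was not tested.

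**Figure D5:**
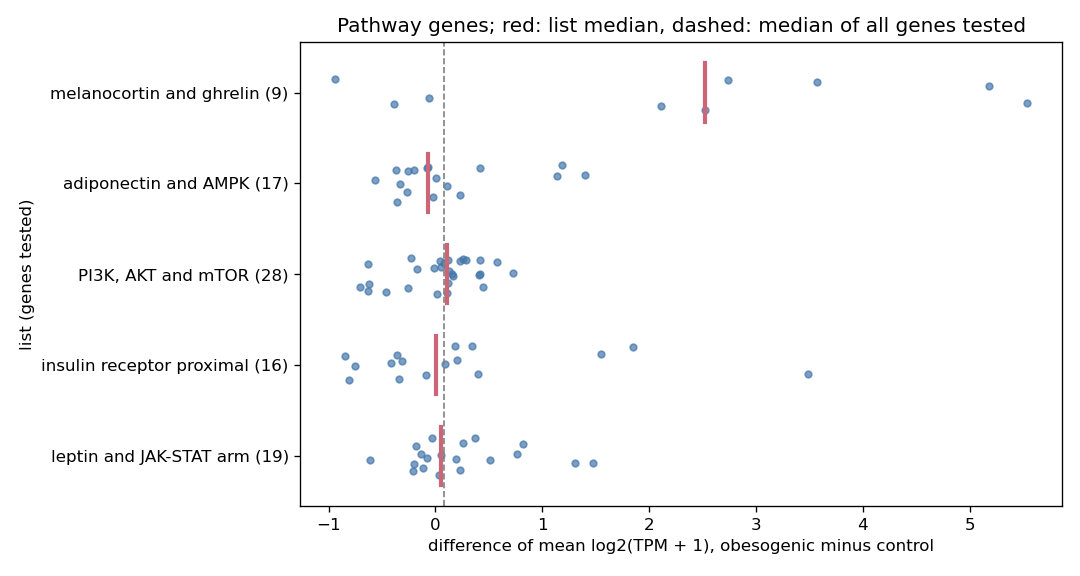
Difference of mean log2(TPM + 1), obesogenic minus control, for each tested gene (points) of the 5 pathway lists, with the list median in red and the median of all genes tested as a dashed line at 0.079. The lists of leptin, insulin, PI3K and adiponectin genes centre near that line, and the melanocortin and ghrelin list, at 2.52, holds 6 genes far to the right. That median covers only the 9 of 14 genes that passed the filter on low values, some of them only through obesogenic libraries where they were high. It therefore follows in part from the filter.

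For each tested member the 2 protein-coding genes with the most similar pattern were found by Pearson's r of log2(TPM + 1) over the 6 libraries, which share depth and cell makeup; with 12840 genes compared, high values are common and no test is attached. Lepr was nearest to Hacl1 (r = 0.997), an enzyme gene of fatty acid alpha-oxidation, and the creatine transporter gene Slc6a8 (r = 0.996). Socs3 was nearest to Fanca and Herc6, both highest in obesogenic library 2, and Ptpn1 to Nrip1 and Nlrc5. Nlrc5, a regulator of MHC class I genes, was at 68.9 TPM in that library and at 2.33 TPM or below elsewhere. Insr was nearest to Clip3 and Ntrk3, Irs1 to Numb and Cmc2, and Irs2 to Hs6st2 and Mief2. Adipor1 was nearest to Lacc1 and the interferon receptor gene Ifnar2, and Adipor2 to Zfp292 and Ripk4, with r between 0.984 and 0.996 for these.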

How the data were processed

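The authors deposited transcript abundances in TPM from 6 optic nerve libraries. Tools listed in the submitters' processing notes are STAR 2.7.9a, featureCounts 2.0.3, Subread and DRAGEN, with no role for any. Which of them produced TPM is not given in the sources used here, nor is a genome build or annotation. TPM keeps no depth, so the depth is unknown and counting intervals are not given; listed values summed to 788456 to 832193 TPM per library. Repeated lines of a transcript held the same values and were dropped (110028 lines, 109383 transcripts), and transcripts were summed to genes. Genes or transcripts with at least 1 TPM in at least 3 libraries entered limma 3.58.1 (R 4.3.3; lmFit, eBayes with trend) on the log2(TPM + 1) scale, 3 libraries against 3, obesogenic minus control. The scale understates changes of low genes. P-values are two-sided and adjusted (Benjamini-Hochberg) across every feature tested, with a threshold of 0.05. Quantities outside that fit had an exact two-sided permutation test.

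The 10 genes, the pathway and marker lists and the alternatives were chosen with earlier results of these data known. Named besides the 10 are, of each pathway list, up to 4 genes of smallest unadjusted p, the ligands and related receptors, and the 2 most similar genes of each member; others are said to be chosen later. Transcript lengths and coding ends come from GENCODE M21, which holds all 33 listed transcripts of the 10 genes and 98.9% of all listed, and promoter windows from RefSeq (GRCm38.p6). Alternatives covered pseudocount, filter, scaling, sample number as a block, weights, eBayes settings, gene summary and leaving out libraries. The fit was tested on simulated data. Same-numbered libraries deviated from their diet means with correlations of 0.0079, 0.18 and 0.13, so the numbers were not taken as pairs. Figures used matplotlib 3.10.9. The values of 1 pathway gene are not reported here.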

Additional observations from a re-analysis of the deposited data

How the results depend on the processing

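Of the 10 genes, 0 passed in every planned setting. With obesogenic libraries 1 and 3 left out together (added after seeing the data) 1 did, Socs3. Over all genes 1 passed in the reported fit, and 0 did without a filter, with at least 2 TPM in all 6 libraries, with TMM factors, with protein-coding genes only, and, both added later, with protein-coding transcripts or transcripts of at least 1000 bases only. Array weights called 2064 genes and 19 pathway genes, and leaving out obesogenic libraries 1 and 3 called 193 and 3. Leaving out 1 library called 0 to 914 genes and 0 to 10 pathway genes, the upper values without obesogenic library 2.

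With the sample number as a replicate block, 1 pathway gene passed, Npy (adjusted p = 0.039), 1 gene in all and 0 of the 10 genes; every control library deviated most like its own number, while obesogenic library 1 deviated most like control library 3 (0.11). The direction of Irs2 turned with TMM factors (-0.041) and without obesogenic libraries 1 and 3 (-0.35), when Adipor1 was at 0.049. Insr turned after rescaling without immunoglobulin genes (0.044), with array weights (0.10) and with the most abundant transcript per gene (0.0076). Array weights also turned Irs1 (0.21) and Igf1r (0.20), rescaling without immunoglobulin genes turned Igf1r (0.000602), and long transcripts alone turned Grb14 (0.029). Leaving out 1 library turned small differences: the ranges were -0.15 to 0.065 for Insr, -0.196 to 0.072 for Insr-204, -0.15 to 1.5 for a noncoding Ptpn1 transcript (ENSMUST00000151705), -0.42 to 0.067 for Irs1, -0.25 to 0.23 for Igf1r, -0.11 to 0.15 for Insr-202, -0.42 to 0.067 for the Irs1 transcript and -0.099 to 0.56 for the coding Ptpn1 transcript. The cause of these turns was not tested. Lepr, Socs3, Ptpn1 and Adipor2 kept their direction in all settings run. Quantile normalization moved the median of all genes from 0.079 to -0.035 and rescaling without immunoglobulin genes to 0.17. TPM without depth leaves the precision of values near 1 TPM, such as Mc4r, Ghsr and Lepr-201, unknown.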

Other observations

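Other transcripts of these genes were listed in some libraries and at 0 in the rest. Leprot, a gene whose transcripts share a locus with Lepr, was listed at 10.6 TPM in control library 3 and at 0 elsewhere. A noncoding Ptpn1 model (ENSMUST00000147210) was at 3.72 and 4.86 TPM in obesogenic libraries 2 and 3 and at 0 elsewhere. Lepr-204 was at 1.90, 0.393 and 4.86 TPM in control libraries and at 0 in every obesogenic library. Mrap, which encodes a melanocortin receptor accessory protein, was at 6.99, 8.95 and 5.91 TPM under the control diet, against 3.33, 5.78 and 1.65 TPM under the obesogenic diet, opposite to its relative Mrap2, at 1.25, 0.898 and 0 TPM and 18.8, 1.41 and 15.9 TPM. These transcripts were chosen after their values were seen.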
